A study of Mus musculus with 2 samples.

Results

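Transcripts of 8 digestive enzyme genes were followed through cells of mouse pancreatic islets. The genes were Cela1, Cpa1, Prss2, Ctrb1, Pnlip, Cela2a, Cela3b and Cpb1, and they are 8 of the 26080 genes seen in at least 3 cells. RevGel-seq, in which each cell is linked to a barcoded bead and the pairs are kept apart in a reversible hydrogel, was applied to islets of control male C57BL/6J mice at 8 weeks of age, with no treatment or genetic change given. The islets were released with collagenase, picked by hand and dissociated with trypsin-EDTA. Both libraries are technical replicates of the same islet preparation, so that the spread between them holds no difference between animals. Library 1 held 735 cells with 15931154 unique molecular identifiers (UMIs, counted transcripts) and library 2 held 748 cells with 17440292.

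Most of the pancreas consists of acinar cells, which fill secretory granules with digestive enzymes and enzyme precursors and release them into the gut. Islets are endocrine. Their beta cells secrete insulin, alpha cells glucagon (Gcg), delta cells somatostatin (Sst) and gamma cells pancreatic polypeptide (Ppy). Digestive enzyme mRNA is among the most abundant of any cell in the pancreas, and RNA set free from broken acinar cells is a known admixture of islet preparations. Among the genes followed here, Cela1, Cela2a and Cela3b encode members of the elastase family, Prss2 a trypsinogen, Ctrb1 a chymotrypsinogen, Cpa1 and Cpb1 carboxypeptidase precursors, and Pnlip the pancreatic lipase.

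Cells were grouped by which hormones reached 1% of their UMIs, with Ins1 and Ins2 added as insulin. In libraries 1 and 2, this gave 182 and 190 cells with insulin only, 182 and 174 with Gcg only, 35 and 23 with Sst only, 54 and 68 with Ppy only, 65 and 86 with Gcg and Ppy, 77 and 71 with Sst and Ppy, and 91 and 92 with no hormone. The remaining 93 cells carried other pairs or triples. None of the 8 genes entered this grouping. Hhex, a transcription factor of delta cells, stood at 286 and 431 UMIs per 1000000 UMIs (CPM) in Sst only and at 252 and 235 in Sst and Ppy, against at most 5.004 in the insulin, Gcg, Ppy and Gcg and Ppy groups and 78.9 and 35.6 with no hormone. The cells with no hormone held markers of several kinds of cell, among them Pecam1 of endothelium (433 and 600 CPM), Ptprc of leukocytes (556 and 450) and Krt19 of ducts (343 and 286). They also held RNA of a list of 30 acinar secretory genes described below, at 1762 and 279 CPM, of which the 3 richest cells carried 98.6% and 77.4%. Over both libraries, Reg1 gave 1945 and Reg3b 1006 of these 3416 UMIs. The 7 digestive enzyme genes other than Cela1 had 21 UMIs in the same group. The level of a gene with no hormone is thus a reference that includes cells rich in list RNA, not a background free of them. Whether those cells are acinar was not tested. The markers of gamma cells did not set the groups apart as well, since Pyy was high in Ppy only (34863 and 26591 CPM) and also in Sst only (11467 and 11697).

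The genes lie on 6 chromosomes of build GRCm38. Cela1 spans chr15:100674421-100687921 on the minus strand and overlaps no other annotated gene. Cpa1 is at chr6:30639218-30645363, Prss2 at chr6:41521787-41525079, Ctrb1 at chr8:111686519-111691010, Pnlip at chr19:58652498-58681788, Cela2a at chr4:141814962-141826160, Cela3b at chr4:137420999-137430540 and Cpb1 at chr3:20248264-20275733. No word of 70 bases in the exons of Cela1, Cpa1, Ctrb1, Pnlip or Cpb1 recurred in another gene. Of such words, 1.74% in Prss2 were shared with Try10 and Try4, 14.6% in Cela2a with Ctrc and 12.8% in Cela3b with Cela3a, so that counts of these 3 genes are less certain.

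The 250 bases before the RefSeq start of Cela1 are shown because this gene parted from the others below, with those of Cpa1 and Ctrb1 beside it. Capitals mark matches, on either strand, to the letters searched: CANNTG (the E-box, bound by bHLH factors such as PTF1A), TGGGAA (the core bound by RBPJ and RBPJL), AAGGTCA (the core bound by NR5A receptors such as NR5A2) and TAATTA (a homeodomain core). PTF1A, RBPJL and NR5A2 are regulators of enzyme genes in acinar cells.
Cela1, chr15:100687921-100688170, minus strand: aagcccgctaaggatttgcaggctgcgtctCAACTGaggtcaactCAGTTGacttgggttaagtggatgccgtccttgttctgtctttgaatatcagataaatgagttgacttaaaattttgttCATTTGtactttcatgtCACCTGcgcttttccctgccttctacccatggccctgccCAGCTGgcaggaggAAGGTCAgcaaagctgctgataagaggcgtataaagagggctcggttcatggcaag
Cpa1, chr6:30638968-30639217, plus strand: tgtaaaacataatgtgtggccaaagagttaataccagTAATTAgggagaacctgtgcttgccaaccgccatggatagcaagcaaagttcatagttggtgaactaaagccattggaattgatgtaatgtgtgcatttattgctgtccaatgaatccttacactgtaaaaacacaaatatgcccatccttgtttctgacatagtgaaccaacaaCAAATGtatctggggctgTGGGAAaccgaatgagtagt
Ctrb1, chr8:111691011-111691260, minus strand: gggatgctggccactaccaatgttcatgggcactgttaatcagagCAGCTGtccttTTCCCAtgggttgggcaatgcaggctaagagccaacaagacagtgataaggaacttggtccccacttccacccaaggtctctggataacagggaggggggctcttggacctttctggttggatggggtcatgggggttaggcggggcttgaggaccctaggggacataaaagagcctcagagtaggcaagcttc
The window of Cela1 held 5 E-boxes and 1 NR5A core, whose first letter lies 56 bases before the start, with 0 RBPJ cores. The windows of the other 7 genes held 0 NR5A cores. An RBPJ core was found in Cpa1, Prss2, Ctrb1, Pnlip and Cela2a. Among 32841 promoters of the same length, 66.2% held an E-box, 21.6% an RBPJ core, 4.08% an NR5A core and 4.84% the homeodomain core. A match describes the letters and is not evidence of binding.

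Cela1 was the abundant gene of the 8, with 1318 UMIs, and 1147 of these (87.0%) lay in the 271 cells (18.3% of all) in which Sst reached 1% of UMIs. In Sst only, it stood at 280 CPM in library 1 (95% Poisson interval 236 to 330) and 136 CPM in library 2 (98.9 to 181). In Sst and Ppy, the levels were 228 and 186 CPM. All other groups were far lower. Cela1 stood at 2.98 and 5.43 CPM in insulin only, 2.30 and 2.64 in Gcg only, 11.1 and 10.2 in Ppy only, 5.78 and 9.82 in Gcg and Ppy, and 11.9 and 6.47 in cells with no hormone. The lowest of the 4 values with Sst was thus 136 CPM and the highest of the 10 without Sst was 11.9. Other genes parted these groups too, such as Hgf below, and the share of all genes that do so was not counted. Intervals cover counting error only.

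As means over the libraries, Sst only (208 ± 102 CPM, SD, n = 2) and Sst and Ppy (207 ± 30.0) headed the order and differed by less than their spread. Ppy only (10.7 ± 0.654), no hormone (9.18 ± 3.84) and Gcg and Ppy (7.80 ± 2.86) followed, and neighbours among them also lay within the spread. Gcg and Ppy and the next group, insulin only (4.21 ± 1.73), lay farther apart than either SD, and were not tested against each other. Insulin only and Gcg only (2.47 ± 0.240) were lowest. Gcg only against insulin only gave a log2 fold change of -1.10 (SE 0.533, adjusted p = 0.157), in a contrast with 24.4% of genes called in either direction, and -0.34 without library 2.

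**Figure D1:**
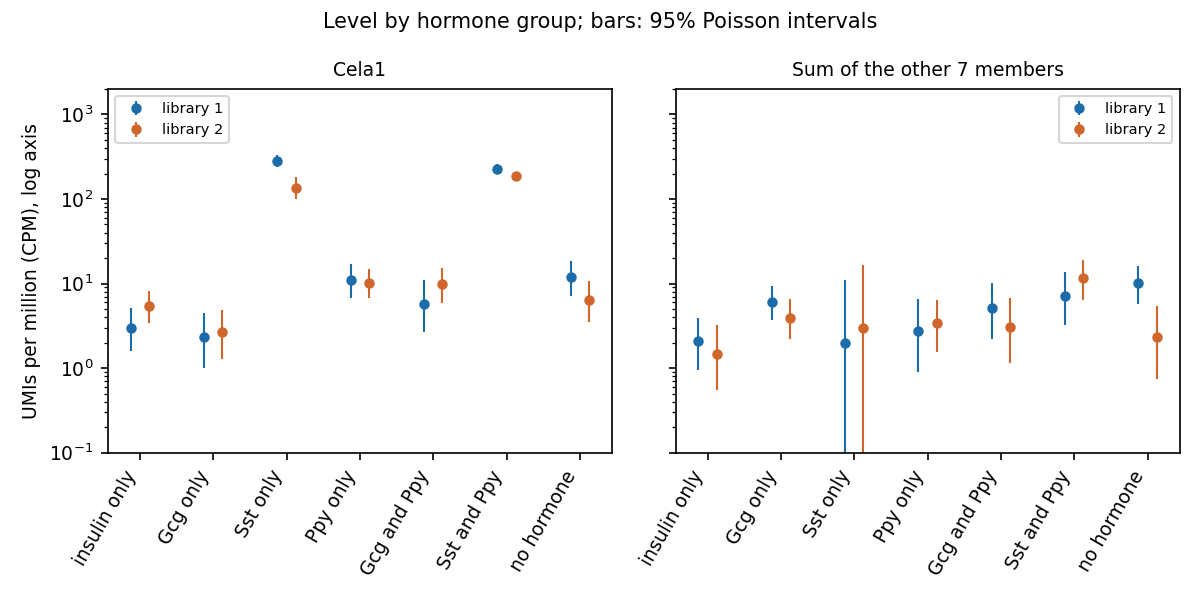
Level of Cela1 (left) and of the other 7 digestive enzyme genes added together (right) in 7 hormone groups, in CPM on a log axis, with a point per library and 95% Poisson intervals as bars, some of which run below the axis. Cela1 stands at 136 CPM or more in both groups with Sst, while the sum of the other 7 genes stays between 1.48 and 11.5 CPM.

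The first comparison asked whether any of the 8 genes was raised in 1 single-hormone group over the other 3. Counts were summed over the cells of each group and library and tested with edgeR's quasi-likelihood test over 15117 genes. Cela1 was the single member abundant enough to pass edgeR's filter on low counts, so 1 of 8 was tested. It was higher in Sst only by 4.90 on the log2 scale (SE 0.276, adjusted p = 1.25e-08), which is 29.8-fold. In this contrast 6.26% of all tested genes were called higher. By size of the fold change, Cela1 took rank 123 of 15117 genes, among 946 called higher. The fold change was 4.66 without library 1 and 5.99 without library 2. Values without a library, here and elsewhere, compare plain log2 CPM in the other library. They lack the scaling between sums that the fit uses, so part of their distance from the fitted values can come from that.

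Markers of other cells were read in the same sums. All 7 endothelial markers were seen in Sst only, at a summed 525 CPM in library 1 and 48.2 in library 2, and leukocyte markers (5 and 1 of 7 seen) gave 145 and 6.02 CPM. In Sst and Ppy the endothelial markers summed to 289 and 51.5 CPM and the leukocyte markers to 74.8 and 6.91. Both lists were thus higher in library 1, as was Cela1, and their part in the difference between libraries was not tested. In cells with no hormone, where the same lists summed to 6494 and 8337 CPM and to 3295 and 3364, Cela1 stood at 11.9 and 6.47 CPM.

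Since each contrast sets a group against the mean of the other 3, the high level in Sst only also enters those of the other groups. Cela1 was accordingly lower in insulin only (log2 fold change -1.66, SE 0.373, adjusted p = 0.00420, in a contrast with 9.5% of genes called lower), and lower in Gcg only (-3.13, SE 0.400, adjusted p = 5.64e-05, 6.95% called lower). Without library 2, the value for insulin only was -2.68. Ppy only gave -0.10 (SE 0.396, adjusted p = 0.943, 9.33% of genes called in either direction). A set of pairwise contrasts was added after the data had been seen. Sst and Ppy exceeded Gcg and Ppy by 4.40 (SE 0.354, adjusted p = 9.65e-07, 5.89% of genes called higher), or by 5.23 without library 2. Sst only against Sst and Ppy gave -0.07 (SE 0.272, adjusted p = 1.0), in a contrast with 2 of 15117 genes called (0.0132%), and 0.30 without library 2.

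The second comparison set each hormone group against the cells with no hormone, a mixture that holds some cells rich in list RNA. Cela1 was higher in Sst only by 4.56 (SE 0.364, adjusted p = 2.04e-07) and in Sst and Ppy by 4.63 (SE 0.344, adjusted p = 6.17e-08). These contrasts call far more genes, with 19.5% and 24.3% higher. Insulin only (-0.36, SE 0.476, adjusted p = 0.542), Ppy only (0.81, SE 0.451, adjusted p = 0.147) and Gcg and Ppy (0.24, SE 0.499, adjusted p = 0.721) did not pass the test for Cela1, while 56.7%, 52.3% and 51.3% of all genes were called in either direction. Without library 2 the values were -1.98, -0.10 and -1.002, and without library 1 they were -0.27, 0.63 and 0.59. On this scale, which is not that of the fit, Ppy only and Gcg and Ppy thus differed in direction between the libraries. Cela1 was lower in Gcg only than in cells with no hormone (log2 fold change -1.45, SE 0.538, adjusted p = 0.0317, 29.8% of genes called lower), and -2.32 without library 2. The 30 secretory genes also summed to less in Gcg only (16.4 and 14.3 CPM against 1762 and 279). They did so in every hormone group, and were lowest in insulin only (5.05 and 3.95 CPM), where Cela1 was not called. Their part in the Gcg only call was not tested. This call was lost at hormone thresholds of 0.5% and 2% (adjusted p = 0.0891 and 0.398) and when the 3 cells richest in digestive enzyme UMIs were left out of each sum (adjusted p = 0.296).

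The remaining 7 genes were scarce everywhere. Over 1483 cells, Ctrb1 had 49 UMIs, Prss2 28, Cela3b 24, Cpa1 16, Pnlip 13, Cela2a 9 and Cpb1 5, together 144. At least 1 of them was seen in 111 cells (7.48%). The cells with Sst held between 1 of 5 UMIs (Cpb1) and 6 of 16 (Cpa1), and 28.5% over the 7 genes, against 87.0% for Cela1.

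Added together, the 7 genes stood at 2.07 and 1.48 CPM in insulin only, 6.04 and 3.96 in Gcg only, 2.78 and 3.40 in Ppy only, and 5.14 and 3.10 in Gcg and Ppy. In Sst only, each library held 1 UMI of them (1.99 and 3.01 CPM), with 95% Poisson intervals that end at 11.1 and 16.8 CPM. Sst and Ppy had 7.16 and 11.5 CPM, and cells with no hormone 10.02 and 2.31. Over the 14 sums the range was 1.48 to 11.5 CPM with a median of 3.25. The values of groups overlapped, and Sst and Ppy lay above the 3 single-hormone groups without Sst in both libraries.

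The trypsinogen Prss2 ranged from 0 to 3.01 CPM, the latter being 1 UMI in Sst only of library 2. The chymotrypsinogen Ctrb1, at 0 in 1 of 14 sums, reached 3.13 CPM in cells with no hormone of library 1 (5 UMIs). Cpa1 was highest in Sst and Ppy of library 2, at 4.61 CPM from 6 UMIs (95% Poisson interval 1.69 to 10.03), while the same group of library 1 had 0. The elastase gene Cela3b reached 3.76 CPM in cells with no hormone of library 1 (6 UMIs, of which 4 in a single cell), and 0 in library 2. Pnlip stayed at or below 1.59 CPM, Cela2a at or below 0.795 and Cpb1 at or below 0.768. In Sst only, Cpa1, Pnlip, Cela2a, Cela3b and Cpb1 were at 0 UMIs in both libraries.

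**Figure D2:**
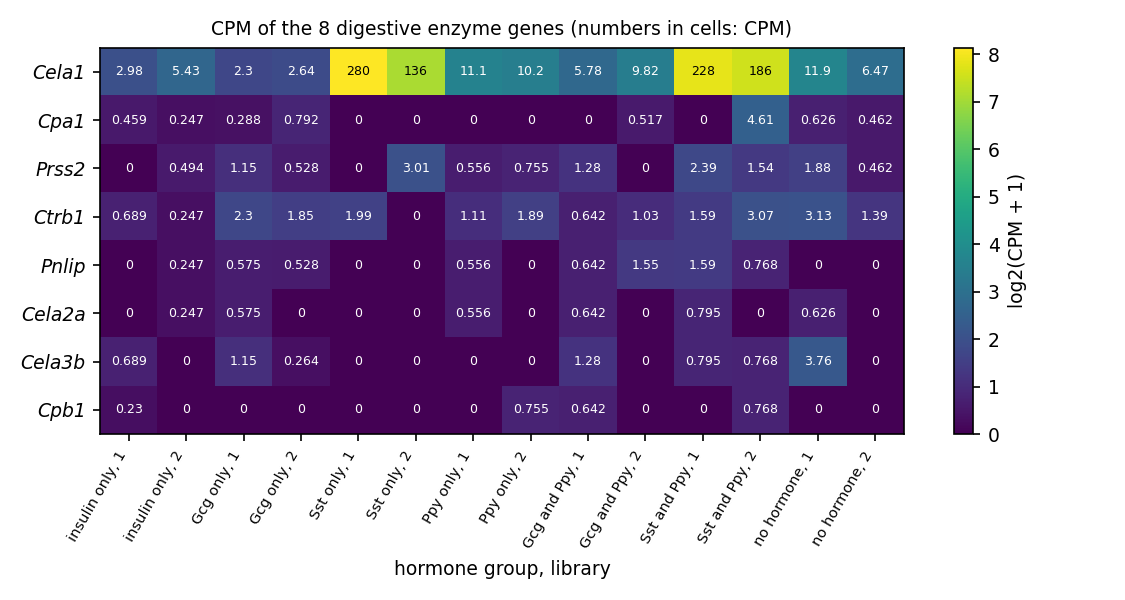
CPM of the 8 digestive enzyme genes (rows) in each hormone group and library (columns), printed in each field and coloured by log2(CPM + 1). The row of Cela1 is bright in the 4 columns with Sst, and no field of another gene exceeds 4.61 CPM.

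None of the 7 passed the filter on low counts. In a fit with no filter (26077 genes), the 10 contrasts gave 70 tests of them with edgeR, of which 0 passed the adjusted threshold and 0 had an unadjusted p below 0.05. Over all genes, this fit called 974 higher and 889 lower in Sst only against the other single-hormone groups. Its calls over all genes in the remaining contrasts were not counted. Among the 70 tests, the lowest unadjusted p was 0.0512 (adjusted p = 0.134). No difference between groups was thus detected in genes of 5 to 49 UMIs each. The size of difference that such counts could show was not tested, nor was the sum of the 7 genes. The highest share that the 8 genes together reached in any cell was 0.417% of its UMIs, so 0 cells had 1% or more.

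Depth differs between groups, and those with Sst were not the deepest. The median cell had 13123 and 13692 UMIs in Sst only, 13459 and 15493 in Sst and Ppy, 13195 and 15014.5 with no hormone, 19642 and 17169.5 in insulin only and 28784.5 and 30339.5 in Ppy only. After each cell was thinned to 4000 UMIs, Cela1 was found in 31.4% of cells in Sst only of library 1 (95% exact interval 16.9% to 49.3%) and 34.8% of library 2 (16.4% to 57.3%). In Sst and Ppy it was found in 32.5% and 25.4%. Cells with no hormone gave 4.40% (1.21% to 10.9%) and 4.35% (1.197% to 10.8%). The shares were 2.20% and 1.05% in insulin only, 1.099% and 1.15% in Gcg only, 1.85% and 1.47% in Ppy only, and 1.16% in Gcg and Ppy of library 2. In Gcg and Ppy of library 1, the count was 0 of 65 cells, for which 3 counts would be 4.62% and the exact interval ends at 5.52%. The groups without Sst were thus at or below the share in cells with no hormone. Unthinned, Cela1 was found in 48.6% and 39.1% of cells in Sst only, 53.2% and 53.5% in Sst and Ppy, and 7.69% and 9.78% with no hormone.

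**Figure D3:**
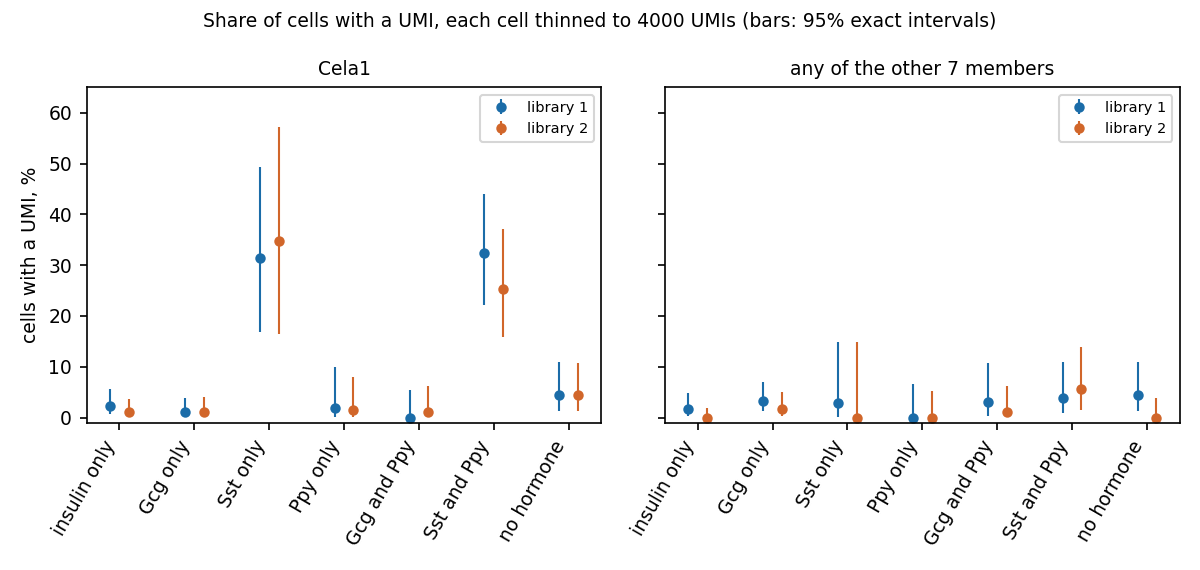
Share of cells with at least 1 UMI of Cela1 (left) or of any of the other 7 genes (right), in %, by hormone group and library, after each cell was thinned to 4000 UMIs, with 95% exact intervals as bars. Cela1 is at 25.4% to 34.8% in the groups with Sst and at 4.40% or less in the others, while the other 7 genes reach at most 5.63%.

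Cela1 was unevenly spread among the cells with Sst. The median cell in Sst only had 0 UMIs of Cela1 in both libraries, while the highest had 41.7 and 11.7 per 10000 UMIs. The 3 richest cells held 56.0% and 51.1% of its UMIs in Sst only, and 30.3% and 33.5% in Sst and Ppy. With the 3 cells richest in digestive enzyme UMIs left out of every sum, Cela1 was still called higher in Sst only than in the other single-hormone groups, and in Sst only and Sst and Ppy than with no hormone. Outside the cells with Sst, few cells carried most of it in library 2, where the 3 richest held 86.4% in insulin only, 96.3% in Ppy only and 94.7% in Gcg and Ppy. Leaving out 3 cells per sum can therefore take a larger part of Cela1 from those groups than from Sst only. The log2 fold change in Sst only over the other single-hormone groups rose from 4.90 to 5.32, so this setting cannot show whether few cells carry the call.

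Cells were then ordered by their share of Sst. Cela1 stood at 5.63 and 2.04 CPM where Sst was below 0.01% of UMIs, and at 4.22 and 5.10 between 0.01% and 0.1%. Between 0.1% and 1% (13 and 10 cells) it was 48.9 and 138, although these cells count as having no Sst in the grouping above. It was 215 and 90.6 CPM between 1% and 3%, 313 and 211 between 3% and 10%, and 204 and 126 from 10% on. The level was thus high in every class above 0.1%, and the class with most Sst was not the highest in either library. The other 7 genes moved between 1.96 and 12.6 CPM over these classes. As a description of cells from the same library, Spearman's rho between the shares of Cela1 and Sst was -0.06 over the 112 cells of library 1 with Sst only or Sst and Ppy, and -0.0003 over the 94 of library 2. Of these cells, 58 and 47 had Cela1.

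**Figure D4:**
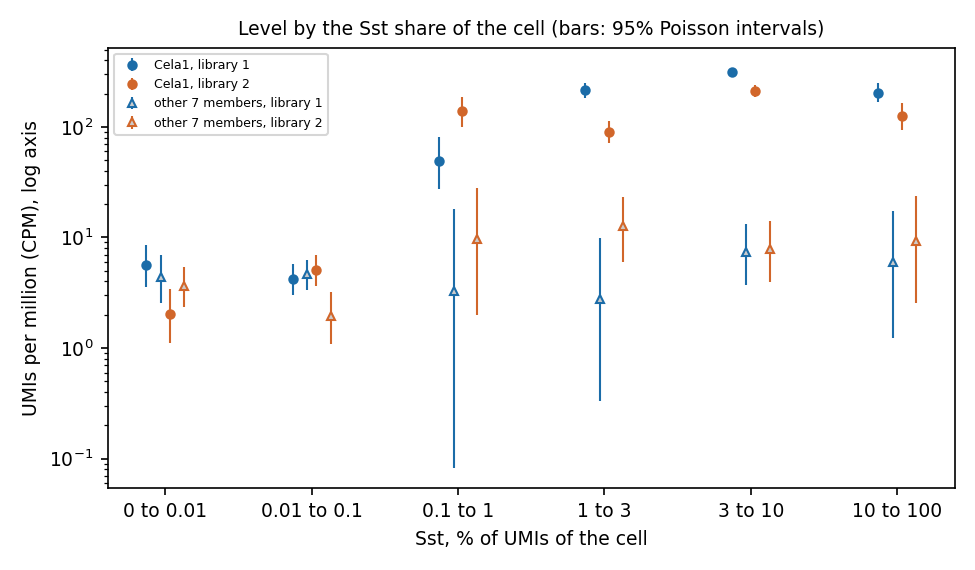
Level in CPM (log axis) of Cela1 (filled circles) and the other 7 digestive enzyme genes together (triangles) in cells ordered by their share of Sst, coloured by library, with 95% Poisson intervals. Cela1 is at 48.9 CPM or more in every class from 0.1% of Sst on, and the other 7 genes stay at or below 12.6 CPM.

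The cells with 0.1% to 1% Sst bear on the groups without Sst, where they are 23 of 1212 cells (1.90%) and hold 58 of 171 Cela1 UMIs (33.9%). Without them, a limit chosen after the values were seen, Cela1 in Ppy only was 4.77 and 1.62 CPM instead of 11.1 and 10.2. In Gcg and Ppy it was 4.01 and 2.11 instead of 5.78 and 9.82. In Gcg only it was 2.34 and 1.87 instead of 2.30 and 2.64. The values in insulin only (3.03 and 4.98 instead of 2.98 and 5.43) and no hormone (11.9 and 6.54 instead of 11.9 and 6.47) moved little. An added contrast of Ppy only with Gcg only had called Cela1 higher by 2.27 (SE 0.501, adjusted p = 0.00909, 4.66% of genes called higher). That call was lost without the 3 cells richest in digestive enzyme UMIs (adjusted p = 0.535) and at a hormone threshold of 0.5% (adjusted p = 0.0719). Ppy only against insulin only gave 1.17 (SE 0.446, adjusted p = 0.0815, 19.8% of genes called in either direction), and 1.88 without library 2.

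**Figure D5:**
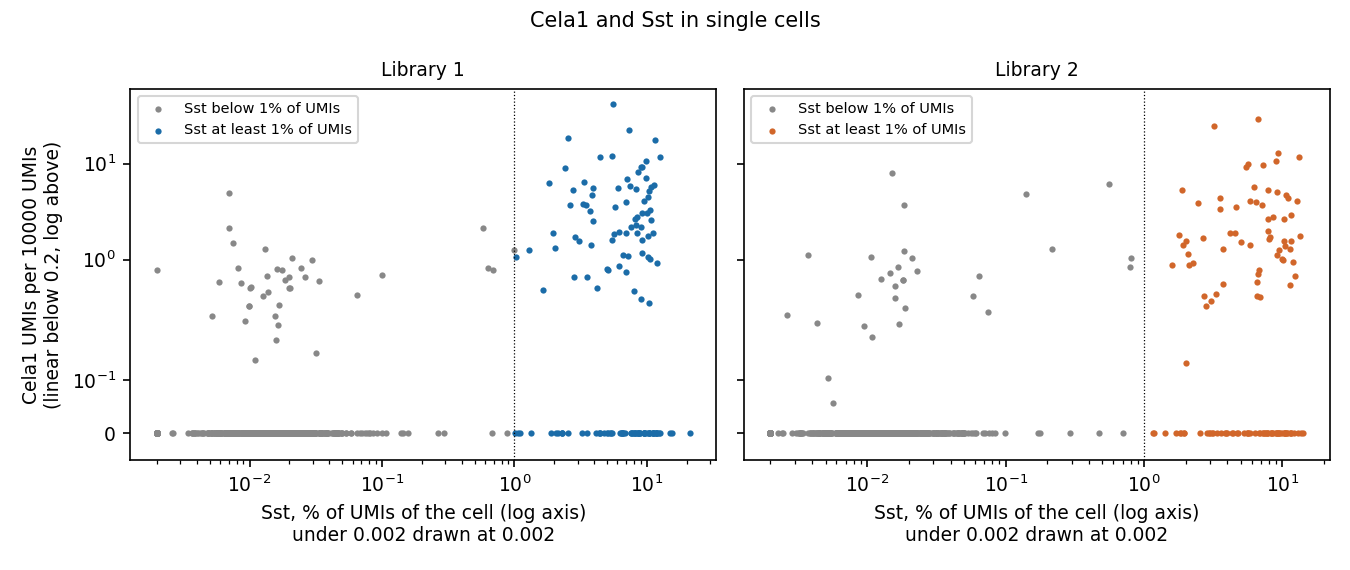
Cela1 UMIs per 10000 UMIs (y axis, linear below 0.2 and log above) against the share of Sst in % of UMIs (x axis, log) for every cell of library 1 (left) and library 2 (right). Coloured points are cells with Sst at 1% or more, grey points the rest. Cells with Cela1 are more frequent right of the dotted line at 1%, where cells at 0 also remain, and others lie left of it. Values reach 41.7 per 10000 UMIs in library 1 and 29.0 in library 2.

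Other acinar genes were read from a list of 30 secretory genes beside the 8. Of these, 20 were listed in the counts under the symbols used, 16 were seen in at least 3 cells and 6 passed the filter of the test (Amy1, Clps, Spink1, Klk1, Reg1 and Reg3b). In Sst only over the other single-hormone groups, edgeR called 0 of these 6 higher and 0 lower, and 0 had an unadjusted p below 0.05. Of all 15117 genes, 946 (6.26%) were called higher and 620 lower, so that 0 calls among 6 genes lies near these shares. The median log2 fold change of the 6 was -0.32, against -0.03 over all genes. It includes Reg1, Reg3b and Spink1, which were at 0 UMIs in Sst only. Against cells with no hormone, 0 of the 6 were called higher in Sst only and 4 lower (Klk1, Reg1, Reg3b and Spink1). In that contrast 19.5% of all genes were called higher and 25.3% lower. The 30 genes summed to 31.8 and 12.05 CPM in Sst only, 24.7 and 19.97 in Sst and Ppy, 3.95 to 18.0 in the other hormone groups, and 1762 and 279 with no hormone.

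Cela1 was also set against the summed UMIs of these 30 genes in the same cells. Sst only held 16 and 4 UMIs of them against 141 and 45 of Cela1, which is 8812.5 and 11250 UMIs of Cela1 per 1000 of the list, and Sst and Ppy gave 9258 and 9308. The values were 591 and 1375 in insulin only, 140.4 and 185 in Gcg only, 714 and 729.7 in Ppy only, 321 and 679 in Gcg and Ppy, and 6.75 and 23.2 with no hormone. Both groups with Sst were thus above all others in each library. The genes that carried the list differed by group, so the ratio has no common base. Amy1 gave 9 of its 20 UMIs in Sst only, while Reg1 gave 1945 of 3416 with no hormone. Without Reg1, Reg2 and Reg3b, an alternative added after the data had been seen, the ratio of Cela1 to the list was 8.81 and 11.3 in Sst only, 11.5 and 9.31 in Sst and Ppy, 0.174 and 0.0393 with no hormone, and between 0.174 and 1.69 in the other groups.

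Among cells without Sst, Cela1 can also be read against the Sst RNA found there. Per 1000 UMIs of Sst, Cela1 had 3.15 and 1.44 UMIs in Sst only and 2.96 and 2.65 in Sst and Ppy. The ratio was 9.98 and 12.5 in Gcg only, 16.2 and 17.4 in Ppy only, 18.7 and 38.2 in Gcg and Ppy, 14.02 and 39.6 in insulin only, and 61.5 and 38.8 with no hormone. Sst itself set these groups, which fixes part of the contrast in this ratio, and the values are given as a description.

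The 5 genes most like Cela1 over the 14 sums, by Pearson's r of log2(CPM + 10) computed for the 10391 genes whose average level reached 10 CPM, were Hgf (0.991), Lmo3 (0.984), Sst itself (0.980), Cacna1h (0.980) and Ppp1r17 (0.978). Hgf, which encodes hepatocyte growth factor, stood at 36.2 to 49.7 CPM in the groups with Sst and at most at 6.04 in the others. Lmo3, a transcription cofactor gene, had 30.1 to 41.7 and at most 1.67. The sums of a library share their preparation, and the values describe them without a test.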

How the data were processed

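The authors deposited a table of counts per library, with whole numbers of deduplicated UMIs by gene and barcode. In their methods, Cytonaut kept barcodes above a knee in depth, aligned reads to exons on GRCm38 and assigned them to Ensembl genes. UMI-tools and Seurat are named in the submitters' processing notes. Empty barcodes were not analysed here. The filter listed in the methods (200 genes per cell, 20% mitochondrial UMIs, genes in 3 cells) removed 0 cells. The libraries shared 0 barcodes. Of 33038 identifiers, 99.8% were found in GENCODE M21. Doublets were not called, and cells with several hormones were kept apart.

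Counts were summed per library and group (14 sums of at least 10 cells) and tested in 1 fit with 7 residual degrees of freedom in edgeR 4.0.16 (R 4.3.3; TMM, filterByExpr, glmQLFit, glmQLFTest, Benjamini-Hochberg, threshold 0.05), after tests on simulated data. DESeq2 1.42.0 served as an alternative, beside hormone thresholds of 0.5% and 2%, hormone genes left out, no filter, a replicate block and single libraries. Two-sided p-values measure only the spread between technical libraries. Shares carry exact Clopper-Pearson and levels exact Poisson intervals at 95%, for counting error only. Thinning used seed 1. Sums, intervals and plots were made in Python 3.11.15 with scipy 1.17.1 and matplotlib 3.10.9.

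The genes, lists and tests were chosen with earlier results of these data known. By rule, the text names all 8 genes, list genes called raised in 1 group, the 3 list genes with most UMIs (Reg1, Reg3b and Klk1) and the 5 genes most like a raised member. Another gene of the acinar list is not reported here, and the list's counts, sums and ratios leave it out and would differ with it. The promoters come from RefSeq on GRCm38.p6, and all 8 genes matched.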

Additional observations from a re-analysis of the deposited data

Results flagged for a closer look

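Cells in which Sst and insulin or Gcg, with or without Ppy, reached 1% of UMIs took no part in the comparisons above, since no such combination had 10 cells in both libraries, but they held Cela1 RNA above the level in cells with no hormone. In the 31 such cells of library 1, Cela1 stood at 309 CPM (297 UMIs), against 11.9 CPM with no hormone, and in the 34 of library 2 at 136 CPM (135 UMIs), against 6.47. The 3 richest cells held 55.2% and 63.7% of these UMIs. The other 7 genes together had 6.24 and 9.08 CPM there. Groups of 2 libraries are too small for a search for outlying libraries.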

How the results depend on the processing

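Cela1 kept its call as higher in Sst only, over the other single-hormone groups and over no hormone, and in Sst and Ppy under every alternative that gives a test, with log2 fold changes of 4.23 to 5.37, 4.41 to 5.12 and 4.52 to 5.26. Without library 1 and without library 2, values with no test, the first was 4.66 and 5.99. The call of 1 gene lower in Gcg only than in no hormone became 0 at thresholds of 0.5% and 2%, and without the 3 cells richest in members. At 2%, 1 gene instead of 0 was called higher in Ppy only than in no hormone. The causes were not tested. Unthinned, the mean share of cells with Cela1 was 4.33% instead of 1.63% in insulin only, 3.66% instead of 1.12% in Gcg only, 43.9% instead of 33.1% in Sst only, 11.3% instead of 1.66% in Ppy only, 6.94% instead of 0.581% in Gcg and Ppy, 53.4% instead of 28.9% in Sst and Ppy and 8.74% instead of 4.37% in no hormone, and that of any other member in all cells 7.49% instead of 1.96%, since more UMIs are counted. At a threshold of 0.5% it was 1.26% in Gcg only, 30.3% in Sst only, 2.72% in Ppy only and 3.90% in no hormone, and at 2% it was 1.47%, 27.4% and 3.11% in the first 3. Cela1 per 1000 UMIs of the acinar list had a mean of 10031 in Sst only, which became 11906 without Reg genes and trypsinogen copies and 8176 at a threshold of 2%. In Sst and Ppy it was 9283, and 11281 without Reg genes and trypsinogen copies, 9043 at 0.5%, 12232 at 2% and 10394 without Reg genes. No cell had 1% of UMIs from members, so leaving such cells out changed nothing. Library numbers did not pair the sums, with correlations of -0.06 to 0.10 over 21 pairs. With a replicate block, 901 genes were higher and 590 lower in Sst only, against 946 and 620 without it, and the calls of Cela1 were the same. With DESeq2 the counts were 938 and 371. Depth limits the 7 scarce genes, at 5 to 49 UMIs each.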

Other observations

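Of 5 acinar transcription factor genes, Ptf1a was not listed in the counts of either library, Rbpjl was seen in fewer than 3 cells and 3 were tested. Of these, 1, Nr5a2, was called higher in Sst only than in the other single-hormone groups (log2 fold change 5.29, SE 0.789, adjusted p = 0.000467, edgeR), in a contrast with 6.26% of all genes called higher. The genes of this paragraph and Spink1 were named after their values were seen. Nr5a2, a nuclear receptor gene, had 13.9 and 21.1 CPM in Sst only and 11.1 and 7.68 in Sst and Ppy, from 7 UMIs each in the former. It was at 0 UMIs in insulin only and at most at 2.22 CPM in Gcg only and Ppy only. Cells with no hormone had 58.2 and 35.6 CPM. Bhlha15, a factor of secretory cells, stood at 23.2 and 25.7 CPM in insulin only, 21.1 and 21.1 in Ppy only, 13.9 and 9.04 in Sst only, 6.90 and 5.28 in Gcg only and 5.64 and 2.77 with no hormone. Gata4, the third factor tested, was at 0 UMIs in Sst only and in Sst and Ppy. Against cells with no hormone, edgeR called 2 of the 3 lower in Sst only, with 25.3% of all genes called lower. These were Nr5a2 (log2 fold change -1.47, adjusted p = 0.0438) and Gata4 (-7.69, adjusted p = 0.0153). Bhlha15 was called higher (1.53, adjusted p = 0.0358), with 19.5% of genes called higher.

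Reg1 and Reg3b, with most UMIs of the 30 list genes, were regenerating family genes found in few cells. Reg1 had 1976 UMIs and Reg3b 1019, of which the 3 richest cells held 93.9% and 94.3%. Both were at 0 UMIs in Sst only in each library. Klk1 (212 UMIs) and Spink1 (134 UMIs) were as narrowly spread, with 89.6% and 94.0% in 3 cells.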
